A study of Mus musculus with 15 samples.

Results

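Expression of 9 genes that carry, restrain or read out Wnt and beta-catenin signaling around the central vein of the liver lobule was followed in whole livers of young and old mice with and without ribosomal S6 kinase 1 (S6K1). The 9 genes were taken by name as parts of that pathway: Ctnnb1, Axin2, Lgr5, Tbx3, Rnf43, Znrf3, Oat, Rhbg and Cyp2e1. They are 9 of the 37991 genes in the count table, and all 9 were among the 14258 genes with enough reads to be tested. The study asked how loss of S6K1 alters the aging liver. Livers came from female C57BL/6 mice bred from heterozygous parents, 5 animals per group and 1 RNA-sequencing library per animal. Young WT mice carried intact S6K1 and were 90 days old, old WT mice were 600 days old with intact S6K1, while old KO mice, also 600 days old, had no S6K1 (gene Rps6kb1) anywhere in the body from conception. No young KO group is analysed here, so genotype was compared at 600 days only, and the comparison of old KO with young WT mixes age and genotype.

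Hepatocytes divide their labor along the axis from the portal vein to the central vein. Endothelial cells of the central vein secrete Wnt proteins and R-spondin 3, and these stabilize beta-catenin in the neighboring pericentral hepatocytes, where beta-catenin and TCF factors switch on genes for glutamine synthesis, ammonium handling and drug metabolism. Rnf43 and Znrf3 remove Wnt receptors from the cell surface, R-spondins acting through Lgr receptors relieve that removal, and Axin2 feeds back on the destruction complex that degrades beta-catenin.

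The genes differed widely in abundance. Expression is given as CPM, the read count of a gene scaled to a common library size after correction for library composition. Divided by the length of the exons, so that genes could be compared with each other, the mean level over the 15 libraries was 3856.5 CPM per kb for Cyp2e1 and 694 CPM per kb for Oat, then 37.8 for Ctnnb1, 9.20 for Tbx3, 4.25 for Rnf43, 4.23 for Rhbg, 2.85 for Axin2, 1.86 for Znrf3 and 1.46 for Lgr5. The enzymes thus stood far above the signaling genes, and Rnf43 and Rhbg were level with each other on this scale. The lowest read count behind any value of the 9 genes was 132, for Rhbg, and the highest was 307725, for Cyp2e1.

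Sequence from just upstream of the gene start is shown for the 3 genes on which the comparisons turn most and that have an entry in the RefSeq promoter table (build GRCm38.p6): Oat, which fell with age, Cyp2e1, whose young and old WT animals separated, and Axin2, the feedback target that varied together with Tbx3 and Rnf43. Each line holds the 250 bases before the start, 5′ to 3′ on the strand of the gene. The Oat segment lies at chr7:132576399-132576648 on the minus strand, the Cyp2e1 segment at chr7:140763569-140763818 on the plus strand and the Axin2 segment at chr11:108920099-108920348 on the plus strand. Capitals mark a match to a TCF core motif, searched on both strands as CTTTG followed by 2 letters that are each A or T.
Oat: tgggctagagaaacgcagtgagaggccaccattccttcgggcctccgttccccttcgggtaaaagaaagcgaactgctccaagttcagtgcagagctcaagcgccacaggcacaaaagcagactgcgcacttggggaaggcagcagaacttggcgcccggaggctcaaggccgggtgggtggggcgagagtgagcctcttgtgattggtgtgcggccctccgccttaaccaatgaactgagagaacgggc
Cyp2e1: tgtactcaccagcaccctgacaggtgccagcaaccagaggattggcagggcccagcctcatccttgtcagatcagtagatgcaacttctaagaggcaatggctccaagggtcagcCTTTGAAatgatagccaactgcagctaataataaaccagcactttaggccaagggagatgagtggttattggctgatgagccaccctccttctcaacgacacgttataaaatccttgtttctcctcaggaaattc
Axin2: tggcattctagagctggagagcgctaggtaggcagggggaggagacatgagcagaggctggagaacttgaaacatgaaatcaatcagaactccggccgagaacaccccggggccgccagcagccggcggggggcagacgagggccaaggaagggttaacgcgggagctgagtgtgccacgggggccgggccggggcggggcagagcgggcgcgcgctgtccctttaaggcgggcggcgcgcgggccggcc
The Cyp2e1 segment holds 1 match, CTTTGAA, which begins 135 bases before the start. In the full windows, which run on to 50 bases past the start, no other match was found for Oat, Axin2, Ctnnb1 (2 windows) or Rnf43 (2 windows). Such a match is common, since 5544 of the 32851 promoter windows of the same length (16.9%) hold at least 1. G and C made up 60.0% of the Oat segment, 48.8% of the Cyp2e1 segment and 69.2% of the Axin2 segment.

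The libraries held 21801754 to 38065359 counted reads, all 8 hepatocyte markers (Alb, Apoa1 and Ttr among them) were at 1 CPM or more in every library, and all 5 old KO libraries lay below all WT libraries for the targeted gene, Rps6kb1. Rps6kb1 stood at 38.3 ± 3.14 CPM in young WT, 38.4 ± 4.21 in old WT and 17.0 ± 2.23 in old KO (mean ± SD, n = 5), a log2 fold change of -1.17 ± 0.10 (SE) between old KO and old WT with an adjusted p of 8.54e-06 in edgeR's quasi-likelihood test. The libraries old WT 7 and young WT 6 differed more than most from their groups. Values without old WT 7 are given for the members in which it was the lowest old WT library. In whole tissue, fewer cells of a type and less RNA per cell cannot be told apart.

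With age, the largest fitted log2 change was that of Oat (-0.84), followed by the nearly equal values of Cyp2e1 (-0.54) and Tbx3 (-0.52). Every signaling gene overlapped between young and old WT livers. Oat was the 1 member of 9 that passed the test for old WT against young WT, and it fell. Among all genes tested, 18.8% passed in either direction and 8.91% passed as lower. The fitted change was below 0 for 6 members and above 0 for 3, with a median of -0.33 on the log2 scale against 0.01 over all genes. Cyp2e1 was lower in all 5 old WT animals than in any young WT animal but missed the adjusted threshold. Oat and Cyp2e1 were the 2 members whose groups did not overlap, both lower, which 5.67% of all genes were.

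Oat encodes ornithine aminotransferase, a mitochondrial enzyme that turns ornithine toward glutamate in pericentral hepatocytes (chromosome 7, 139749158 to 139768081, minus strand, mm9). In young WT livers its level was 2293, 1906, 2417, 2279 and 1703 CPM in animals 1, 2, 3, 4 and 6. In old WT livers it was 1006, 1389, 834, 1388 and 1298 CPM in animals 1, 4, 5, 7 and 10. In old KO livers it was 878, 1323, 1306, 1310 and 1114 CPM in animals 1, 2, 4, 5 and 6. Every old animal of either genotype lay below every young one, and the old KO range lay inside that of old WT. The log2 fold change was -0.84 ± 0.16 (SE) for old WT against young WT, with an adjusted p of 0.00266 in edgeR, so that old WT livers held 55.8% of the young level. For old KO against young WT it was -0.84 ± 0.16 with an adjusted p of 0.00191. Between old KO and old WT the difference was 0.00, with a 95% interval of -0.33 to 0.34 (adjusted p = 0.998). The summed level of the 8 hepatocyte markers was 75734 to 122010 CPM in young WT, 89604 to 134080 CPM in old WT animals and 107620 to 141260 CPM in old KO animals, with wide overlap between the groups. Alb made up most of that sum. Of the 8 markers singly, Apoa1, an apolipoprotein, fell with age (7760 ± 1440 to 4810 ± 1572 CPM, adjusted p = 0.0241) and no other passed, and between old KO and old WT none passed in edgeR, with 0 at an unadjusted p under 0.05, although all 8 had fitted values above 0 and a median of 0.21 on the log2 scale. The part of these shifts in the values of Oat and Cyp2e1 was not tested.

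Cyp2e1 encodes a cytochrome P450 that oxidizes ethanol and other small molecules and is among the most abundant pericentral transcripts (chromosome 7, 147949638 to 147960874, plus strand). Young WT animals held 8101, 7736, 8987, 8190 and 8493 CPM, in the same animal order as for Oat. Old WT animals held 6026, 7349, 6702, 3039 and 5455 CPM, and old KO animals 5149, 6970, 8663, 6508 and 8320 CPM. The young animals lay close together, all old WT animals lay below them, and old WT 7 was far below its own group. The old KO animals spread across both WT groups, with animals 4 and 6 in the young range. The log2 fold change with age was -0.54 ± 0.19 (SE), with an adjusted p of 0.0622 in edgeR. Without old WT 7 it was -0.37 (adjusted p = 0.0838), and without old WT 4, the highest of its group, it was -0.64 (adjusted p = 0.0484). DESeq2 and limma voom called it, with adjusted p = 0.0269 and 0.0457, and over all 23 other settings the log2 fold change ranged from -0.64 to -0.23 and the adjusted p from 0.0269 to 0.418. For old KO against old WT the difference was 0.32, with a 95% interval of -0.09 to 0.73 (adjusted p = 0.553), and 0.15 without old WT 7.

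Rhbg encodes an ammonium transporter of the pericentral hepatocyte membrane (chromosome 3, 88046796 to 88091132, minus strand). Its level was 11.1, 6.56, 11.7, 11.03 and 10.3 CPM in young WT, 11.2, 9.99, 9.84, 7.29 and 15.2 CPM in old WT, and 7.75, 7.55, 8.95, 9.64 and 6.13 CPM in old KO. The WT groups overlapped, with young WT even except for a low animal 2 and old WT spread from a low animal 7 to a high animal 10. The old KO animals lay at or below 9.64 CPM, and old KO 6 was below every WT animal. The log2 fold change with age was 0.08 ± 0.19 (SE; adjusted p = 0.791), and 0.20 without old WT 7. For old KO against old WT it was -0.42 ± 0.19, with a 95% interval of -0.82 to -0.02, an unadjusted p of 0.0405 and an adjusted p of 0.401 in edgeR, and it was -0.26 without old WT 10 and -0.53 without old WT 7. An exon of Rhbg shares 145 bases with 1700021C14Rik on the same strand, where reads cannot be assigned to 1 gene with certainty.

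**Figure D1:**
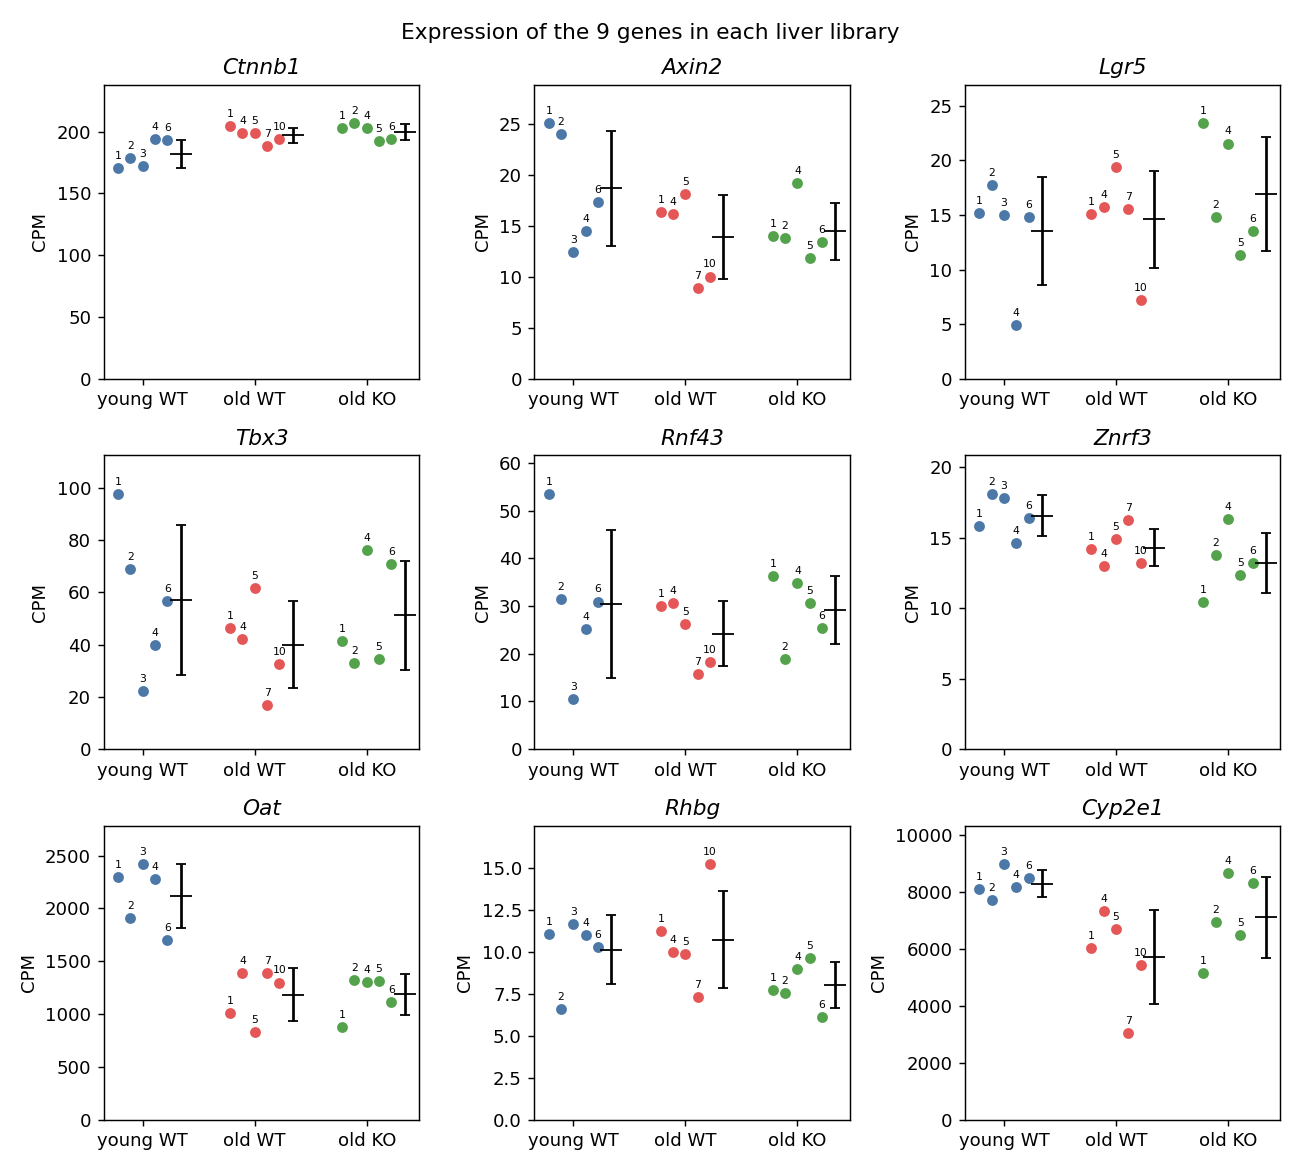
Expression of the 9 genes in CPM (vertical axes, each from 0) in the livers of 5 young WT, 5 old WT and 5 old KO mice, with 1 point per animal, its replicate number and black bars for the mean ± SD. For Oat all old animals lie at or below 1389 CPM and all young animals at or above 1703 CPM, and for Cyp2e1 the old WT animals lie below the young ones, whereas the groups overlap for the other genes.

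Glul, the pericentral glutamine synthetase and a classical beta-catenin target, is no member but was looked up beside them after its values were seen. It averaged 1051 ± 118 CPM in young WT, 724 ± 146 in old WT and 858 ± 127 in old KO (mean ± SD, n = 5). Its log2 fold change with age was -0.54 (adjusted p = 0.0149 in edgeR), with no overlap between young and old WT, and old KO differed from old WT by 0.24 (adjusted p = 0.527). Old WT 7 was the lowest old WT animal for Glul too, at 542 CPM.

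Upstream of these enzymes, Ctnnb1 encodes beta-catenin itself (chromosome 9, 120838334 to 120869625, plus strand). It stood at 171, 178, 172, 194 and 193 CPM in young WT, at 205, 199, 199, 188 and 194 CPM in old WT, and at 203, 207, 203, 193 and 194 CPM in old KO. The old groups covered the same narrow range, which reached slightly above that of the young animals. The log2 fold change was 0.12 ± 0.06 (SE) with age (adjusted p = 0.211) and 0.02 with genotype, with a 95% interval of -0.11 to 0.15 (adjusted p = 0.944). This was the tightest interval of the 9 genes, and without old WT 7 the values were 0.14 and -0.00. The SD between animals of a group was 0.06 on the log2 CPM scale for Ctnnb1, and only 0.40% of all tested genes had a smaller one. RNA levels do not report the stabilized protein through which beta-catenin acts.

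Axin2, a scaffold of the destruction complex and the usual transcriptional readout of beta-catenin, lies on chromosome 11 (108781663 to 108812097, plus strand). Its level was 25.1, 24.03, 12.5, 14.5 and 17.3 CPM in young WT, 16.3, 16.1, 18.1, 8.91 and 10.03 CPM in old WT, and 14.003, 13.8, 19.2, 11.9 and 13.4 CPM in old KO. Young WT 1 and 2 were high and old WT 7 and 10 were low, with the other animals between them in all 3 groups. With age the log2 fold change was -0.43 ± 0.22 (SE; adjusted p = 0.192), and -0.29 without old WT 7. Between old KO and old WT it was 0.05, with a 95% interval of -0.42 to 0.53 (adjusted p = 0.962), a difference whose sign turned to -0.07 without old WT 7. Axin2 shares 209 exon bases with Gm11670 on the opposite strand. Ctnnb1 likewise shares 240 exon bases with Ulk4, and Tbx3 115 with Gm2301, each on the opposite strand.

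Tbx3, a transcription factor induced by beta-catenin in pericentral hepatocytes (chromosome 5, 120120678 to 120134733, plus strand), had the widest spread of the 9. Young WT animals held 97.6, 68.8, 22.3, 40.0 and 56.5 CPM, old WT animals 46.2, 42.1, 61.8, 16.8 and 32.7 CPM, and old KO animals 41.3, 33.0, 76.1, 34.5 and 70.7 CPM. Within young WT alone the animals ranged from 22.3 to 97.6 CPM, and all other animals except old WT 7 fell inside that range. Its log2 change with age was -0.52 ± 0.37 (SE; adjusted p = 0.353), and it was -0.23 without young WT 1 and -0.31 without old WT 7. For genotype it was 0.35, with a 95% interval of -0.44 to 1.14 (adjusted p = 0.786). That value was 0.15 without old WT 7, and leaving out animals 4 or 6 of old KO gave 0.17 and 0.21, whereas it was 0.56 in the absence of old WT 5.

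Lgr5, an R-spondin receptor that marks the hepatocytes nearest the central vein, lies on chromosome 10 (114887367 to 115024836, minus strand). It was found at 15.1, 17.7, 14.96, 4.91 and 14.8 CPM in young WT, at 15.1, 15.7, 19.4, 15.6 and 7.20 CPM in old WT, and at 23.4, 14.9, 21.5, 11.4 and 13.6 CPM in old KO. Young WT 4 and old WT 10 were low against otherwise even groups, and old KO 1 and 4 exceeded every WT animal. The log2 fold change was 0.11 ± 0.30 (SE) with age (adjusted p = 0.825), turning to -0.11 without young WT 4. With genotype it was 0.21, with a 95% interval of -0.42 to 0.85 (adjusted p = 0.849), and it was 0.04 without old WT 10. Leaving out animals 1, 4 or 5 of old KO gave 0.07, 0.11 and 0.32, and leaving out animal 5 of old WT gave 0.34.

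The paired ubiquitin ligases that clear Wnt receptors differed in how steady they were. Rnf43 (chromosome 11, 87476224 to 87549041, plus strand) ranged over 53.5, 31.5, 10.5, 25.3 and 31.0 CPM in young WT, 29.9, 30.7, 26.3, 15.8 and 18.3 CPM in old WT, and 36.2, 18.8, 34.8, 30.6 and 25.3 CPM in old KO. Znrf3 (chromosome 11, 5176327 to 5344850, minus strand) lay at 15.9, 18.1, 17.8, 14.6 and 16.4 CPM in young WT, 14.2, 12.98, 14.9, 16.3 and 13.2 CPM in old WT, and 10.4, 13.8, 16.3, 12.4 and 13.2 CPM in old KO. Young WT 1 and young WT 3 were the highest and lowest of all livers for Rnf43, whereas no young animal stood apart for Znrf3. With age the log2 fold change was -0.33 ± 0.31 (SE) for Rnf43 (adjusted p = 0.492), and it was -0.02 without young WT 1, -0.20 without old WT 7 and -0.54 without young WT 3. For Znrf3 it was -0.21 ± 0.11 (adjusted p = 0.183). Old KO and old WT differed by 0.27 for Rnf43, with a 95% interval of -0.40 to 0.93 (adjusted p = 0.814), and by -0.12 for Znrf3, with an interval of -0.35 to 0.12 (adjusted p = 0.754). The Rnf43 difference was 0.14 without old WT 7 and 0.18 when either animal 10 of old WT or animal 1 of old KO was left out. For Znrf3 it was -0.07 without old WT 7, and leaving out animals 1 or 4 of old KO gave -0.04 and -0.20. Rnf43 lies 1.12 Mb from Rps6kb1 on chromosome 11, so for Rnf43 the loss of S6K1 and strain DNA carried along with the targeted allele cannot be told apart.

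Loss of S6K1 in old livers moved none of the 9 genes past the threshold: 0 of 9 passed with edgeR, with DESeq2 and with limma voom, where 0.533% of all genes passed with edgeR. At an unadjusted p under 0.05 the number was 1 (Rhbg), which 11.6% of all genes met. No member separated old KO from old WT animals without overlap, as 3.20% of all genes did. The median difference was 0.05 on the log2 scale, against 0.00 over all genes. The intervals excluded a halving or doubling (a log2 change of 1) for every member except Tbx3, whose upper bound was 1.14, and they were narrowest for Ctnnb1, Znrf3 and Oat.

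Against young WT, old KO livers were lower in 2 of 9 members, Oat and Znrf3, where 23.3% of all genes passed in either direction and 11.3% as lower. Znrf3 had a log2 fold change of -0.33 ± 0.11 (SE; adjusted p = 0.0392 in edgeR), and 4 of the 5 old KO animals lay below every young WT animal. This call was lost in 10 of 23 other settings, among them when young WT 1, 2 or 3 or old KO 1, 2, 5 or 6 was left out, with an adjusted p of at most 0.0939 in those. Cyp2e1, which separated old from young WT animals, gave -0.22 ± 0.19 here (adjusted p = 0.433). The comparisons with age and with genotype use the same old WT libraries, so a low old WT library pushes them in opposite directions. Side by side, the log2 changes with age and with genotype were -0.54 and 0.32 for Cyp2e1, -0.52 and 0.35 for Tbx3, -0.33 and 0.27 for Rnf43, -0.43 and 0.05 for Axin2, and -0.84 and 0.00 for Oat. Without old WT 7 these were -0.37 and 0.15 for Cyp2e1, -0.31 and 0.15 for Tbx3, -0.20 and 0.14 for Rnf43, -0.29 and -0.07 for Axin2, and -0.90 and 0.06 for Oat. The remaining members did not pair a fall with age and a rise with genotype. With all libraries, their values were -0.21 and -0.12 for Znrf3, 0.08 and -0.42 for Rhbg, 0.12 and 0.02 for Ctnnb1, and 0.11 and 0.21 for Lgr5.

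**Figure D2:**
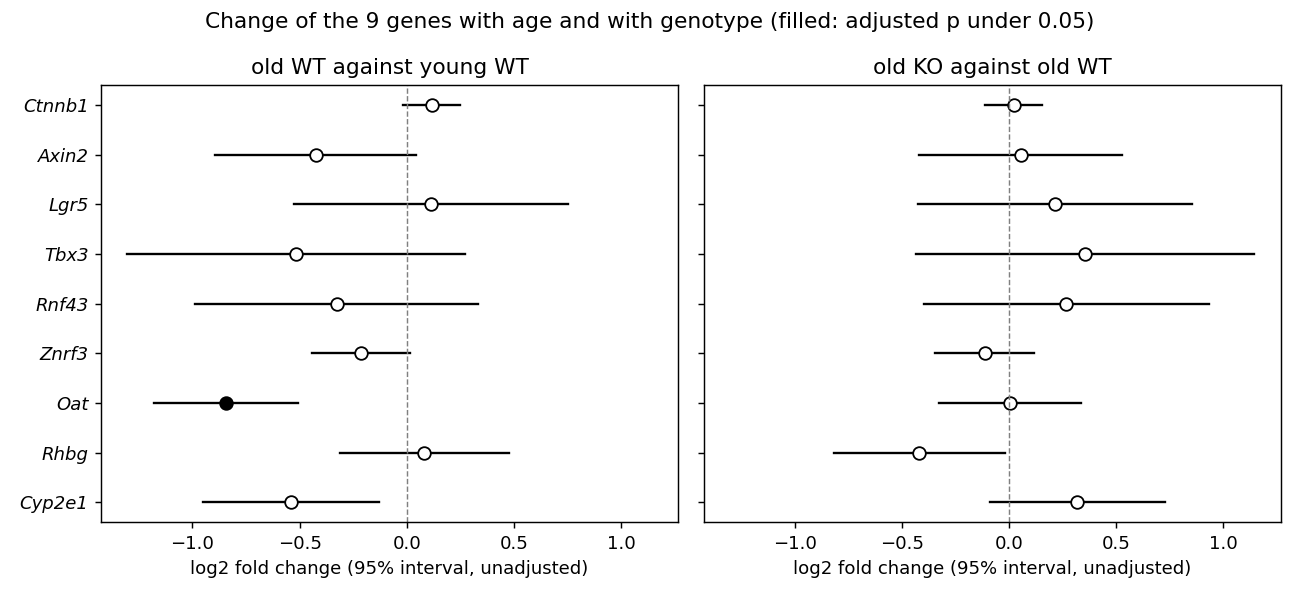
Log2 fold change of each of the 9 genes (horizontal axis) for old WT against young WT (left) and old KO against old WT (right), 5 animals per group, with circles for fitted values, bars for unadjusted 95% intervals and filled circles for an adjusted p under 0.05. Oat with age, at -0.84, is the single filled circle, and the Rhbg interval with genotype, -0.82 to -0.02, ends just short of 0.

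Animals of the same group differed from one another more in some members than in most genes of like abundance. The pooled SD within groups on the log2 CPM scale was 0.70 for Tbx3, 0.60 for Rnf43, 0.59 for Lgr5 and 0.40 for Axin2, against a median of 0.23 over all genes. Among genes within 0.5 log2 CPM of the same abundance, 99.2% had a smaller SD than Tbx3, 97.8% than Rnf43, 97.2% than Lgr5 and 93.3% than Axin2. The share was 83.2% for Rhbg, 71.4% for Cyp2e1, 61.1% for Oat, 48.2% for Znrf3 and 1.46% for Ctnnb1. Only 14 genes were of like abundance for Cyp2e1 and 54 for Oat. Within the groups the Cyp2e1 SD was 0.08 in young WT, 0.50 in old WT and 0.30 in old KO. Tbx3, Rnf43, Lgr5 and Axin2 were thus spread widely, Rhbg, Cyp2e1 and Oat less so, Znrf3 was near the middle and Ctnnb1 was among the steadiest genes.

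That spread was shared by Axin2, Tbx3 and Rnf43 over the 15 libraries, less closely for Rnf43 within old KO. After the group means had been subtracted, the Pearson r over the 15 libraries was 0.88 between Axin2 and Tbx3 (Spearman rho 0.83), 0.80 between Tbx3 and Rnf43 (rho 0.68) and 0.77 between Axin2 and Rnf43 (rho 0.77). Without the 2 libraries farthest from the median of the first gene, r was 0.82, 0.63 and 0.70. These are descriptions of 15 animals in which the genes share library and depth, and 3 of the 36 pairs among the 9 genes exceeded 0.7, with a median of 0.12 over all pairs. For Axin2 against all 14257 other tested genes the median r was 0.02 and the 99th percentile 0.73. Within the groups, r between Axin2 and Tbx3 was 0.95 in young WT, 0.92 in old WT and 0.66 in old KO, each over 5 animals. In the same order, r was 0.86, 0.94 and 0.32 between Axin2 and Rnf43, and 0.98, 0.83 and 0.33 between Tbx3 and Rnf43. Young WT 1 was high, and young WT 3 and old WT 7 were low, in all 3 genes.

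The enzyme genes did not share this pattern throughout. Young WT 3, lowest of its group for Axin2, Tbx3 and Rnf43, had the highest Cyp2e1 and Oat levels of all animals. The r between Axin2 and Cyp2e1 was 0.50 over the 15 libraries and 0.36 without the 2 farthest, and it was -0.81 in young WT, 0.84 in old WT and 0.48 in old KO. Between Axin2 and Oat it was -0.39. Lgr5 had an r of 0.53 with Axin2, 0.28 with Tbx3 and 0.24 with Rnf43.

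**Figure D3:**
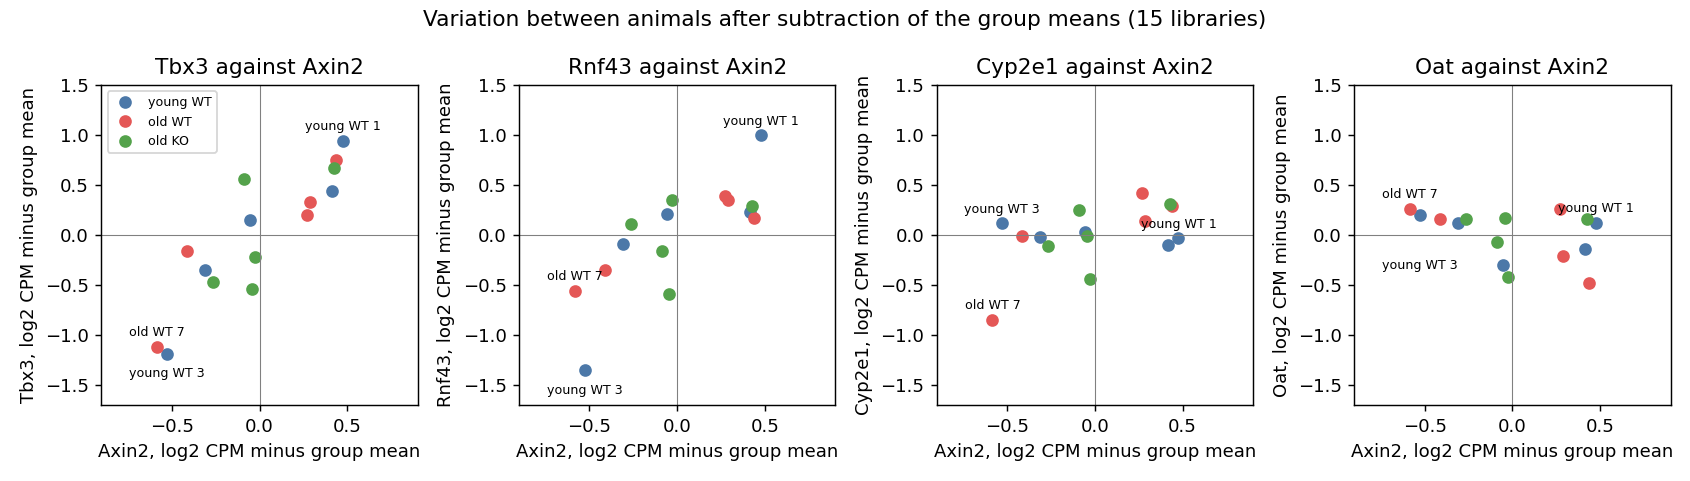
Deviation of each animal from its group mean on the log2 CPM scale, for Axin2 (horizontal axis) against Tbx3, Rnf43, Cyp2e1 and Oat (vertical axes) in 15 livers, colored by group. Tbx3 and Rnf43 rise along with Axin2 (r = 0.88 and 0.77), while young WT 3 lies low for Tbx3 and Rnf43 but not for Cyp2e1 or Oat.

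Tested genes other than the members were ranked by their likeness to each member over the 15 libraries. The measure was Pearson r of log2 CPM with group means left in. Since members were not ranked, the order cannot show whether another member was closer. For Axin2 the first genes were Cstf2t (r = 0.90), Diablo (0.88) and Stk11ip (0.88), and Cstf2t was also first for Tbx3 (0.92). Gata4, a transcription factor of the liver, was first for Rnf43 (0.87), Rcor3 for Lgr5 (0.82) and Pde4d, a phosphodiesterase, for Znrf3 (0.86). Pklr, the liver pyruvate kinase, was first for Ctnnb1 (0.94), N6amt1 for Oat (0.94), Relt for Rhbg (0.82) and Mup10 for Cyp2e1 (0.90). Spearman rho was lower for Mup10 (0.64), Rcor3 (0.65) and Gata4 (0.68), and 0.77 to 0.94 for the other partners. Mup10 belongs to a family of near-identical genes, and its reads are assigned with uncertainty. The partner of Axin2 and Tbx3 moved over a far smaller range, since Cstf2t lay between 32.1 and 44.2 CPM across all livers.

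The ligands that central vein endothelial cells send to these hepatocytes were scarce in whole liver. Wnt2 stood at 2.97, 2.78, 4.17, 4.64 and 2.89 CPM in young WT, 3.12, 2.85, 2.12, 1.10 and 2.65 CPM in old WT, and 1.91, 2.18, 2.57, 2.98 and 3.02 CPM in old KO. Wnt9b averaged 1.20 ± 0.36, 0.73 ± 0.31 and 1.16 ± 0.51 CPM, and Rspo3, the R-spondin of the central vein, 6.44 ± 0.96, 5.49 ± 0.71 and 6.04 ± 0.53 CPM (mean ± SD, n = 5, young WT, old WT and old KO). All groups overlapped for all 3 ligands. Their log2 fold changes with age were -0.56 (adjusted p = 0.113), -0.73 (adjusted p = 0.145) and -0.23 (adjusted p = 0.204) in edgeR, and with genotype 0.09 (adjusted p = 0.937), 0.67 (adjusted p = 0.482) and 0.14 (adjusted p = 0.728). Of 16 liver endothelial markers, 4 fell with age (Thbd, Lyve1, Stab2 and Stab1), none rose and 14 had a fitted change below 0. In young WT their summed level ranged from 340 to 588 CPM, in old WT from 268 to 462 CPM and in old KO from 355 to 396 CPM, and no marker was at 0. The part of endothelial RNA in the ligand values was not tested.

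Among the remaining ligand genes and their helpers, 2 of 11 tested (25 listed) rose with age and none fell. Wnt5b, usually assigned to beta-catenin-independent signaling, rose from 5.20 ± 0.90 to 7.35 ± 1.42 CPM (log2 fold change 0.50, adjusted p = 0.0406), and the other, Wnt9a, passed at a level under 1 CPM in both groups. The receptors and co-receptors (Frizzled, Lrp and Ror families, Lgr4) gave 0 of 11 calls with edgeR, with 2 at an unadjusted p under 0.05.

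In the cytoplasmic machinery, 3 of 17 genes of the Dishevelled and destruction complex list fell with age and none rose, and 15 of the 17 fitted changes were below 0 (median -0.10). They were Tnks, a tankyrase that marks Axin proteins for degradation (log2 fold change -0.38, adjusted p = 0.0208), Dvl3, a Dishevelled protein that relays the receptor signal (-0.37, adjusted p = 0.0242), and Csnk1a1, the kinase that primes beta-catenin for destruction (-0.22, adjusted p = 0.0233). Csnk1a1 went from 170 ± 10.1 to 146 ± 6.42 CPM and Tnks from 29.6 ± 3.19 to 22.8 ± 2.38 CPM, without overlap between young and old WT for either. Of these, Tnks and Dvl3 are known to promote the signal and Csnk1a1 to restrain it.

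Among 14 TCF factors and beta-catenin partners, 4 rose with age and none fell. Pygo1, a nuclear co-activator, rose by 1.12 on the log2 scale (adjusted p = 0.0146), Ctnnbip1, an inhibitor that keeps beta-catenin from TCF factors, by 0.60 (adjusted p = 0.00589), Tcf7l1, a TCF factor that mainly represses, by 0.56 (adjusted p = 0.0148), and Cdh2, the cadherin that holds beta-catenin at the hepatocyte membrane, by 0.31 (adjusted p = 0.0442). Of the secreted and feedback inhibitors, 2 of 8 tested (20 listed) rose and none fell. Dkk3, a Dickkopf family member, rose from 2.59 ± 0.57 to 4.37 ± 1.45 CPM (log2 fold change 0.75, adjusted p = 0.0197), and Sfrp5 passed at under 1 CPM. Of 15 other beta-catenin target genes, Tcf4 alone passed, and it rose (0.33, adjusted p = 0.0255). None of these lists held a call between old KO and old WT.

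The other pericentral genes moved in both directions with age: 6 of 23 rose, 5 fell and 12 did not pass, with a median of 0.07. Gstm3, a glutathione transferase, rose from 6.91 ± 2.57 to 25.3 ± 9.07 CPM (log2 fold change 1.86, adjusted p = 0.00515), and Rcan2, a calcineurin regulator, from 15.6 ± 6.79 to 44.7 ± 20.2 CPM (1.52, adjusted p = 0.00292). Sult5a1, a sulfotransferase, fell from 11.6 ± 3.43 to 4.19 ± 1.95 CPM (-1.47, adjusted p = 0.00427), and Slc22a3, an organic cation transporter, from 13.4 ± 2.20 to 5.18 ± 1.39 CPM (-1.37, adjusted p = 0.00066). Of 21 periportal genes, Ctsc, a lysosomal protease, rose (0.86, adjusted p = 0.0034) and 3 fell, namely Cps1 (-1.27, adjusted p = 0.0197) and Arg1 (-0.73, adjusted p = 0.0411) of the urea cycle and Cyp2f2, a periportal cytochrome (-0.75, adjusted p = 0.0318). Genes that passed thus came from both ends of the lobule. Over all 8 pathway and zonation lists, 27 of 115 tested genes passed with age, or 23.5%, beside the 18.8% of all genes. Of the called genes named by rule from these lists for age, Tcf7l1, Slc22a3, Rcan2, Sult5a1 and Ctsc passed in all 23 other settings. The rest lost the call in 1 (Pygo1, Ctnnbip1 and Gstm3) to 13 of them (Cdh2), with 12 for Arg1, 11 for Wnt5b and 8 each for Dvl3 and Cyp2f2.

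Between old KO and old WT livers, 2 of the 115 genes passed, or 1.74%, beside 0.533% of all genes, and both were pericentral and higher in old KO. At an unadjusted p under 0.05 in edgeR the number was 12 of 115, a bar that 11.6% of all genes met. Those genes were not spread evenly, since 8 were among the 23 other pericentral genes and 1 among the 21 periportal genes. Of the 23 pericentral genes, 16 had a fitted change above 0 and 7 below. Their median was 0.20, beside 0.15 for the periportal genes and 0.21 for the 8 hepatocyte markers. The cause was not tested. Sult5a1 rose from 4.19 ± 1.95 to 12.7 ± 3.13 CPM (log2 fold change 1.59, adjusted p = 0.0295), beside a young WT mean of 11.6 CPM, and Avpr1a, the vasopressin receptor of hepatocytes, from 29.1 ± 8.09 to 57.7 ± 10.9 CPM (0.99, adjusted p = 0.0247). Groups did not overlap for either gene. Both calls stood when animals 5, 7 or 10 of old WT, animal 1 of old KO or any 1 young WT library was left out. Neither passed when animals 1 or 4 of old WT or animals 2, 5 or 6 of old KO were left out in turn, and Sult5a1 also failed without old KO 4 and with limma voom. The adjusted p reached 0.178 for Sult5a1 and 0.0829 for Avpr1a, while the log2 fold changes stayed between 1.40 and 1.81 for Sult5a1 and between 0.86 and 1.11 for Avpr1a over all 23 settings. Beside these, macrophage markers were lower in old KO: 4 of 10 passed (Cd5l, Clec4f, Vsig4 and Cd68), all 10 had a fitted change below 0, and their summed level, 234 to 584 CPM across old WT animals, ranged from 143 to 216 CPM in old KO, with none at 0. The part of macrophage RNA in the values of the pathway genes was not tested.

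**Figure D4:**
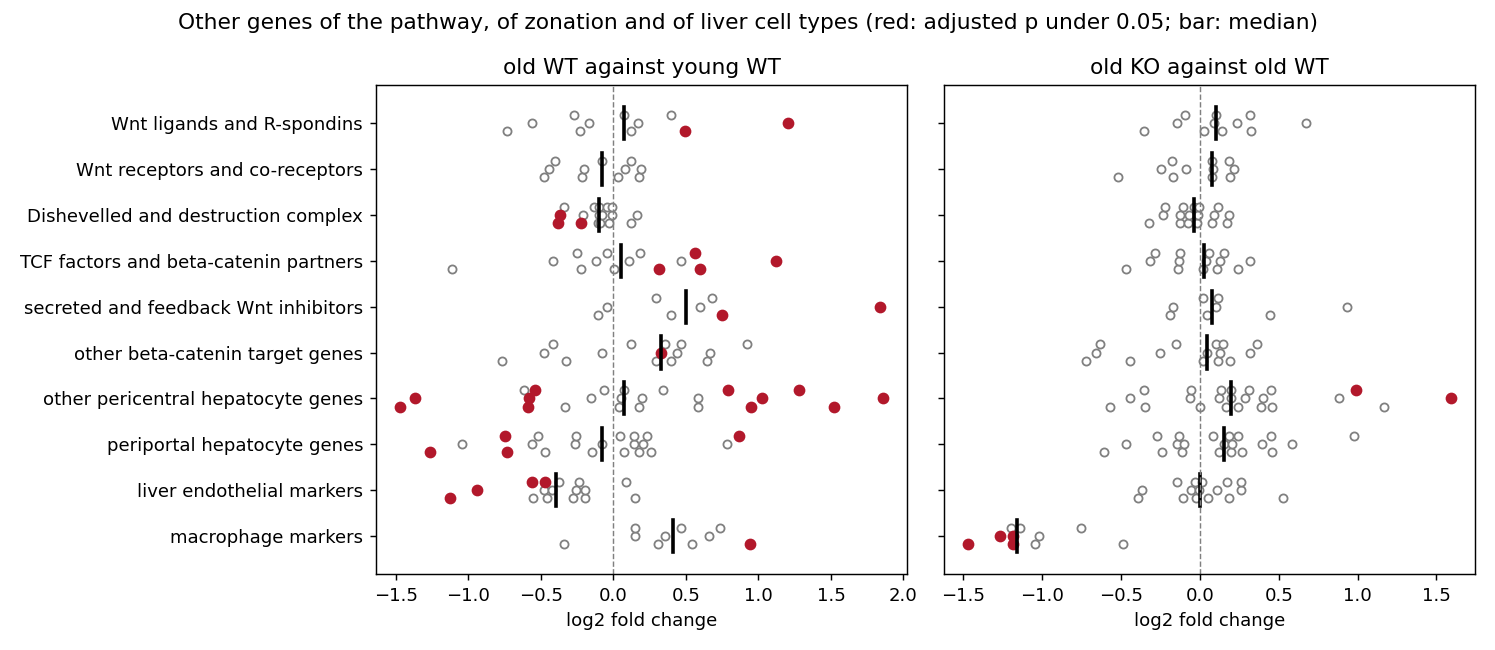
Log2 fold changes (horizontal axis) of the other tested genes of 8 pathway and zonation lists and of 2 cell type marker lists, for old WT against young WT (left) and old KO against old WT (right), 5 animals per group, with 1 circle per gene, red for an adjusted p under 0.05 and bars for list medians. With age, endothelial markers center at -0.40 and calls scatter to both sides among pericentral genes, whereas with genotype 2 pericentral genes lie at 0.99 and 1.59 and macrophage markers center at -1.16.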

How the data were processed

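Livers of 15 mice were profiled by RNA sequencing, 1 library per animal, and titles of the samples gave each its group and number. The authors prepared stranded poly(A) libraries, sequenced single-end reads of 50 bases, mapped them to mm9 (TopHat2 2.0.11 per the submitters' processing notes, which also name CASAVA and DESeq2 1.18.1) and used HTSeq for counting. Deposited were raw counts for each gene, not normalized or pooled. The annotation and the strand setting of the counting are not given in the sources used here, so reads of overlapping genes on opposite strands may be mixed. All 15 columns of samples were used. Positions are from GENCODE M1 on NCBIM37 (mm9), and promoter sequences from RefSeq on GRCm38.p6. No promoter is shown for Lgr5, Tbx3, Znrf3 and Rhbg.

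Counts of all 37991 genes were filtered with filterByExpr, which left 14258, scaled by TMM and fitted by edgeR 4.0.16 (R 4.3.3) with group as the only term over all 15 libraries. Contrasts were tested with glmQLFTest and adjusted by Benjamini-Hochberg over all tested genes, with a threshold of 0.05. SE is the standard error of the log2 fold change, and 95% intervals are unadjusted. CPM were computed on TMM-scaled library sizes, and log2 CPM used a prior count of 2. Total counts were 21801754 to 38065359 per library. Counting error is negligible for Cyp2e1 and Oat but is part of the spread between animals for genes with few reads. The lowest counts were 132 for Rhbg, 163 for Lgr5, 243 for Axin2 and 279 for Znrf3. The 5 animals per group limit the precision. On simulated counts for old KO against old WT over 14258 genes, edgeR called 90 of 100 genes changed by a log2 fold change of 1 and 100 of 100 changed by 2. The simulation gave each gene the spread typical of its abundance. Its rates therefore do not hold for Tbx3, Rnf43, Lgr5 and Axin2, which were spread more widely than most genes of like abundance. Rhbg, Cyp2e1 and Oat were spread more widely than 83.2%, 71.4% and 61.1% of such genes, so the rates may be too high for them as well. The simulation held 100 changed genes of each size, whereas 76 genes passed in the data. That can make its adjusted threshold easier to meet. No libraries of a group agreed within sampling noise (chi-square per degree of freedom 18.2 to 118 over 30 pairs).

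Alternatives were RLE and upper quartile scaling, DESeq2 1.42.0, limma voom (limma 3.58.1), no filter, at least 10 counts in every library, the 10 libraries of each contrast alone, the replicate number as a block and each library left out in turn. Tables and correlations were made in Python 3.11.15. The members and gene lists were chosen with earlier results of these data known. Of the 202 list entries, 1 matched no gene. From each pathway list at most 4 called genes with the largest change were named among those with a mean of at least 1 CPM, together with Wnt2, Wnt9b, Rspo3 and Rps6kb1. Wnt9a, Sfrp5, Cdh1, Glul and the named cell type markers fall outside that rule and were named after their values were seen.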

Additional observations from a re-analysis of the deposited data

Results flagged for a closer look

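For the 9 genes in each of the 3 groups, 27 sets of 5 animals were examined for an animal far from the rest. Chance alone marks about 1 in 20 such sets. Lgr5 in young WT 4 stood at 4.91 CPM, while the other young WT animals lay between 14.8 and 17.7 CPM, and the gap to the nearest took up 0.773 of the whole range. Rhbg in young WT 2 stood at 6.56 CPM, below 10.3 to 11.7 CPM in the others, with a gap of 0.724 of the range. These were different animals, and neither was low for the other gene. The direction of the age difference turned without them, to -0.11 for Lgr5 and -0.04 for Rhbg on the log2 scale.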

How the results depend on the processing

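Oat stayed called with age and between old KO and young WT in all 23 other settings, and no member was called with genotype in any. Of 621 member values under other settings, 581 kept direction and side of the threshold, 10 lost the call (Znrf3, old KO against young WT), 4 gained one (Cyp2e1 with age in 3 settings, Ctnnb1 between old KO and young WT in DESeq2) and 26 turned sign. Members called with age numbered 2 with DESeq2 and with limma voom, and 1 to 2 when 1 library was left out. Between old KO and young WT the number was 1 without a filter, with the 10 libraries alone and with the replicate block, and 1 to 2 when 1 library was left out. Other pathway genes called with age numbered 18 to 31 when 1 library was left out and 13 with the replicate block. With genotype they numbered 4 with DESeq2, 1 with limma voom, 0 with the block and 0 to 3 when 1 library was left out. The causes were not tested.

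The sign of member changes turned only where no setting called them. With the replicate block, the log2 change was -0.084 for Rhbg with age, -0.23 for Cyp2e1 with age (adjusted p = 0.418) and, with genotype, -0.017 for Ctnnb1, -0.22 for Axin2 and -0.072 for Lgr5, and Tbx3 with genotype was 0.017 and Cyp2e1 0.034. Both Sult5a1 and Avpr1a lost their genotype call there. The Oat difference with genotype was -0.018 with upper quartile scaling, -0.0028 without a filter and -0.0058 when every library needed 10 counts, and Rnf43 between old KO and young WT was 0.075 with limma voom. With 1 library left out, the lowest and highest values were -0.11 to 0.28 for Lgr5 with age, -0.076 to 0.20 for Rhbg with age, -0.00048 to 0.033 for Ctnnb1 with genotype, -0.075 to 0.17 for Axin2 with genotype, -0.10 to 0.094 for Oat with genotype, -0.36 to 0.12 for Tbx3 between old KO and young WT and -0.27 to 0.25 for Rnf43 between old KO and young WT.

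The replicate numbers did not pair the animals: deviations of 9 same-numbered pairs correlated at -0.153 to 0.077, and 0 of 12 libraries were closest to a same-numbered one. The block left 5 residual degrees of freedom, and over all genes it gave 899 calls with age against 2685 and 6 with genotype against 76. DESeq2 gave 302 with genotype and limma voom 23. The permutation test planned for members failing the filter was not run, since all passed. With 5 animals per group, the genotype intervals of Tbx3, Rnf43 and Lgr5 remained the widest of the 9 genes.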
